A study of Mus musculus with 2 samples.

Results

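The marginal zone B cell and Notch2 genes were 9 genes picked by symbol from the 22216 rows of a deposited gene expression table of mouse spleen. They were Notch2, Dtx1, Hes1, Asb2, Cd1d1, S1pr3, Plac8, Zbtb20 and Bhlhe41, and all 9 had a row. The table came from RNA sequencing of 2 libraries, 1 of genotype NOD.L7 and 1 of genotype NOD.g7, each made from the pooled spleens of 3 mice. NOD is the non-obese diabetic mouse, an inbred strain prone to autoimmune diabetes. The series title calls the first kind of mouse NOD.Lc7, and the sources used here do not give the meaning of L7, Lc7 and g7, the age or sex of the mice, or any treatment. The table's columns are headed NOD.LC7 and NOD: the first matches the series title's name for NOD.L7, and the second was taken as NOD.g7 by exclusion, so the direction of every fold here rests on that reading.

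Marginal zone B cells lie at the border of the splenic white pulp and respond early to antigens carried in blood. In mice they depend on the receptor Notch2, which is engaged by the ligand Dll1 on splenic stromal cells. The bound receptor is cut by Adam10 and then by the gamma-secretase complex, and its intracellular part joins the DNA-binding protein Rbpj and Mastermind co-activators to switch on target genes such as Hes1 and Dtx1. Most of these genes are not limited to marginal zone B cells: Notch2 also acts in splenic dendritic cells, and Plac8 and Cd1d1 are made by several kinds of leukocyte.

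Values are RPKM, reads scaled to gene length and to the number of mapped reads, and are single measurements. The deposited values rested on 12.1 Gb of mapped sequence in NOD.L7 and 9.13 Gb in NOD.g7, and 11141 genes reached an RPKM of 1 in either library. With 1 library per genotype no test between genotypes was possible, so each difference is one between these 2 libraries. The intervals given with folds are 95% exact binomial intervals from approximate fragment numbers. They cover counting error only and leave out differences between mice, pools and library preparations. In a sample of mixed cells fewer cells of a type and less RNA per cell cannot be told apart.

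All 9 genes were detected in both libraries, and their order of level was the same in each. Plac8 was the highest at an RPKM of 252 in NOD.L7 and 273 in NOD.g7, and Zbtb20 the lowest at 3.14 in NOD.L7 and 3.62 in NOD.g7. Between these lay, from high to low, Dtx1, Notch2, Cd1d1, Asb2, S1pr3, Hes1 and Bhlhe41. Cd1d1, Asb2, S1pr3 and Hes1 were close together, between 14.9 and 22.2 in NOD.L7 and between 13.7 and 22.9 in NOD.g7. Set among the 11141 genes, the mean level of Plac8 was at the 99.2nd percentile, that of Dtx1 at the 96.9th and that of Notch2 at the 89.4th, while Zbtb20 was at the 17.9th.

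**Figure D1:**
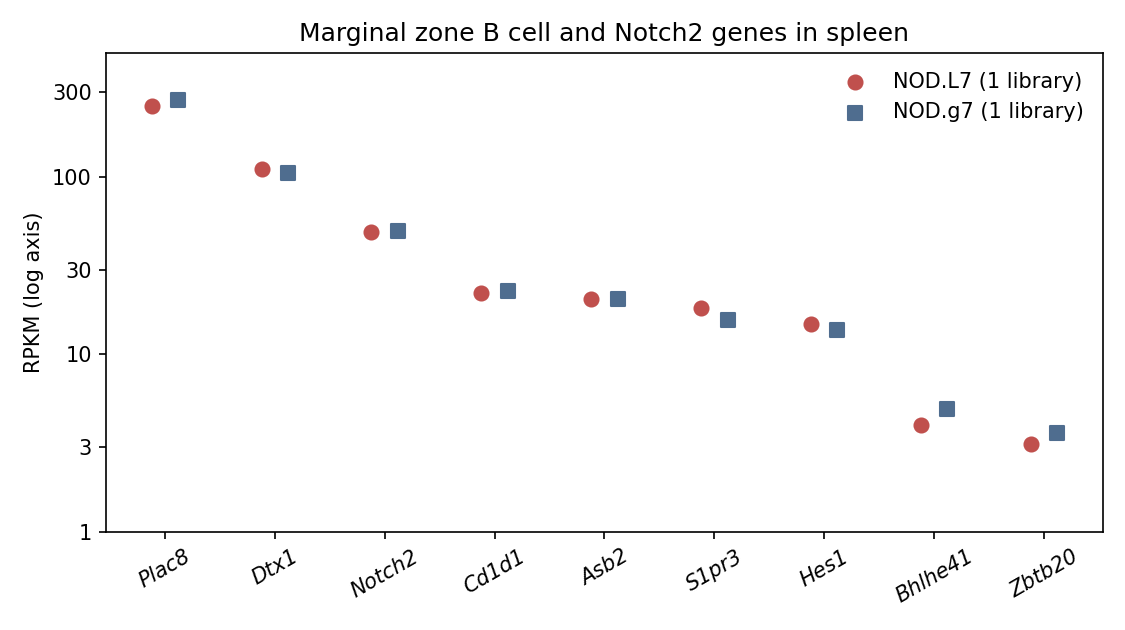
RPKM of each of the 9 genes on a log axis, with circles for the NOD.L7 library and squares for the NOD.g7 library (1 library each, so no error bars). The genes run from Plac8 (252 in NOD.L7 and 273 in NOD.g7) to Zbtb20 (3.14 in NOD.L7 and 3.62 in NOD.g7), and the paired symbols lie close together for each gene.

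The libraries differed little in these genes. None of the 9 passed an absolute log2 ratio of 1, where the ratio was that of NOD.L7 to NOD.g7 after 1 was added to each RPKM, against 0.709% of the 11141 genes. None reached a plain fold of 1.5 in either direction, against 5.3% of all genes. With 9 genes a count of 0 is near what these shares give, so it does not set them apart. The median log2 ratio was -0.01, beside 0.02 over all genes, with 4 of the 9 higher and 5 lower in NOD.L7 (56.2% of all genes were higher). After median centring or a TMM factor 3 were higher and 6 lower, Asb2 having crossed 0. The plain folds ran between 0.815 for Bhlhe41 and 1.16 for S1pr3. Of all 11141 genes 85.7% lay no further from a log2 ratio of 0 than Bhlhe41, so such closeness was common in the table.

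The receptor and its target genes were near equal. Notch2 itself was at an RPKM of 48.9 in NOD.L7 and 49.4 in NOD.g7, a fold of 0.991 with a counting interval of 0.974 to 1.01. It is a long transcript and had the narrowest interval of the 9 genes. Dtx1, which encodes the ubiquitin ligase Deltex1 and is a direct Notch target, was at 112 in NOD.L7 and 105 in NOD.g7, a fold of 1.06 (1.04 to 1.08). Hes1, a transcriptional repressor of the basic helix-loop-helix family, was at 14.9 in NOD.L7 and 13.7 in NOD.g7, a fold of 1.09 (0.999 to 1.18). Asb2, which brings substrates to a cullin ubiquitin ligase, was at 20.5 in both libraries, a fold of 1.003 (0.953 to 1.06). The interval of Dtx1 lay above 1, those of Notch2 and Asb2 included it, and that of Hes1 reached just under it.

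Of the genes with roles at the cell surface and in migration, S1pr3 was the furthest above in NOD.L7. S1pr3 encodes a receptor for the blood lipid sphingosine 1-phosphate, which helps to hold marginal zone B cells in place, and was at 18.2 in NOD.L7 and 15.7 in NOD.g7, a fold of 1.16 (1.11 to 1.22). Cd1d1, which presents lipid antigens to natural killer T cells, was at 22.2 in NOD.L7 and 22.9 in NOD.g7, a fold of 0.970 (0.906 to 1.04). Its neighbour and near-identical copy Cd1d2 was at 0.786 in NOD.L7 and 0.787 in NOD.g7. The sources used here do not say how reads common to the 2 copies were assigned, so the split between them is uncertain, although both were alike across libraries. Plac8, a small cysteine-rich protein gene, had a fold of 0.922 (0.897 to 0.948), with 252 in NOD.L7 and 273 in NOD.g7.

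The transcription factor genes Zbtb20 and Bhlhe41 were the lowest in level and the furthest below in NOD.L7. Zbtb20, a zinc finger factor also used by plasma cells, was at 3.14 in NOD.L7 and 3.62 in NOD.g7, a fold of 0.868 (0.766 to 0.982). Bhlhe41, a helix-loop-helix repressor known for its part in B1a cells, was at 4.01 in NOD.L7 and 4.92 in NOD.g7, a fold of 0.815 (0.656 to 1.01). The interval of Bhlhe41 rested on about 180 fragments in NOD.L7 and 167 in NOD.g7 and was the widest of the 9. A fold of 1 and a decrease of 1.5-fold both lay within it. Those fragment numbers used a transcript length of 744 bases, and a longer one would give a narrower interval, which could leave out 1. Its paralog Bhlhe40 lay on the other side, at 20.9 in NOD.L7 and 17.6 in NOD.g7, a fold of 1.19 (1.13 to 1.25). With the transcript lengths used, the counting interval included 1 for 5 of the 9 genes, lay above it for 2 (S1pr3 and Dtx1) and below it for 2 (Plac8 and Zbtb20).

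**Figure D2:**
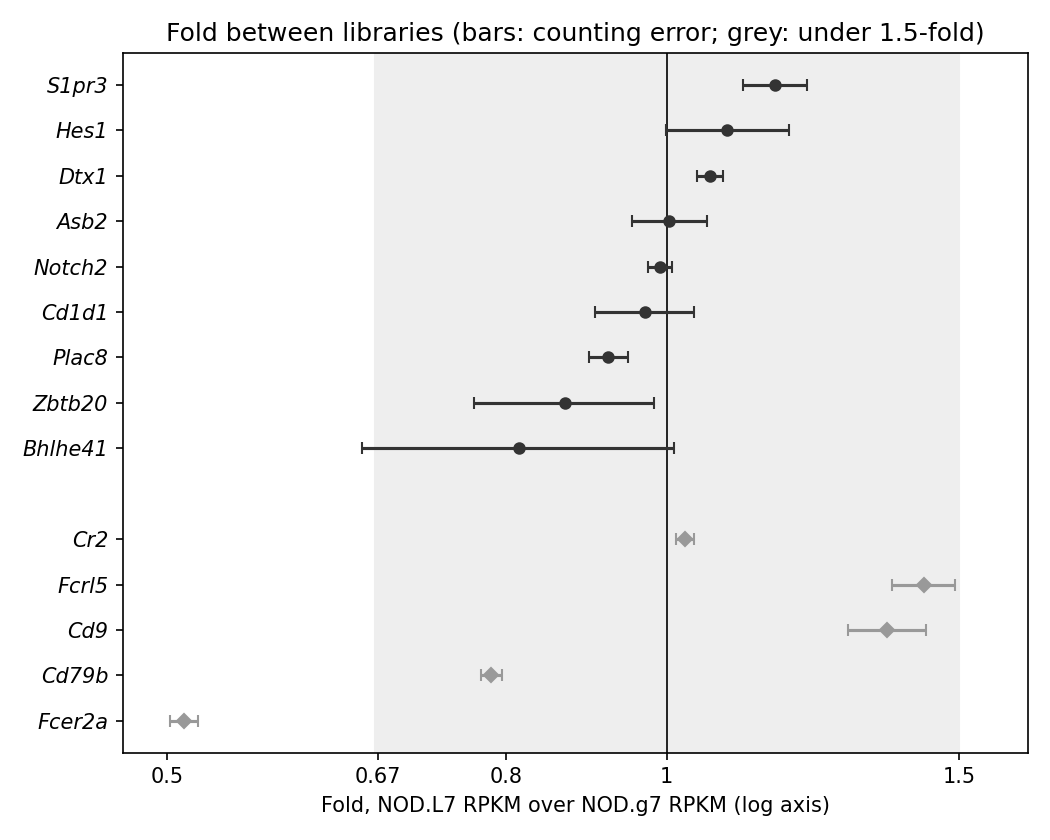
Fold of NOD.L7 RPKM over NOD.g7 RPKM on a log axis for the 9 genes (circles) and for 5 other B cell genes (diamonds), with bars for the 95% counting interval and grey for folds under 1.5 either way. The 9 genes sit between 0.815 and 1.16, Fcrl5 and Cd9 at 1.43 and 1.36, Cd79b at 0.784 and Fcer2a at 0.512. The lower genes of the list of other marginal zone B cell genes (S1pr1, Cd36 and Myof) are not drawn.

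Because Notch2 acts through Rbpj, promoter sequences of the 9 genes were searched for the letters TGGGAA, the core recognised by Rbpj, and for CACGTG, the E-box that Bhlhe41 binds. RefSeq windows of build GRCm38.p6, 250 bases before to 50 after a start, were found for 7 of the 9 genes (Hes1 and Cd1d1 had none in the table used), and both strands were read. TGGGAA or its complement was in 3 of these 7 genes, against 28.3% of all 27025 genes, and CACGTG was in 2 of 7, against 8.09%. All matches are shown: they fall in S1pr3, Bhlhe41 and Zbtb20, the genes furthest from a fold of 1, in Plac8, and in Asb2, the gene nearest to it. Plac8 and Asb2 had 2 windows each, so more of their sequence was searched. Capitals mark the matched letters, and each run is read 5′ to 3′ on the gene's strand.
S1pr3: cggggacgtggcTGGGAAccagggcgtatc
Plac8: ccaatggtttgtTTCCCAtcctctggacat
Zbtb20: tagtgaggttccTGGGAAgaatgtggtcat
Asb2: aaatgatgacatCACGTGagggccgaagcc
Bhlhe41: tggtacgttccgCACGTGagctgggtgctg

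The runs lie at chr13:51408619-51408648 (plus strand), chr5:100563054-100563083 (minus), chr16:43247099-43247128 (plus), chr12:103356007-103356036 (minus) and chr6:145865556-145865585 (minus). The letters begin at base 14 after the start of S1pr3, base 26 after a second start of Plac8, and 173, 23 and 153 bases before the starts of Zbtb20, Asb2 and Bhlhe41. Genes with an Rbpj match had folds on both sides of 1 (S1pr3 1.16, Plac8 0.922, Zbtb20 0.868), and the folds of those with an E-box were 1.003 (Asb2) and 0.815 (Bhlhe41). Dtx1 and Notch2 had neither run of letters in their windows. A match describes the sequence and does not show binding.

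Among 36 other kept genes of the Notch pathway 2 (Dll1 and Aph1b) were past 1.5-fold, or 5.56%, near the 5.3% of all genes, and the median log2 ratio was 0.01. Of 9 receptors and ligands 4 reached an RPKM of 1, and Notch2 was the highest in level, 2.40 times Notch1 in NOD.L7 and 2.90 times in NOD.g7. Notch1, the receptor used in T cell development, was at 20.4 in NOD.L7 and 17.0 in NOD.g7, a fold of 1.20 (1.16 to 1.23). Notch4, an endothelial receptor, was at 1.20 in NOD.L7 and 1.17 in NOD.g7. Dll1, the ligand for Notch2 in the marginal zone, was at 0.736 in NOD.L7 and 1.14 in NOD.g7, a fold of 0.646 (0.519 to 0.802). It was the 1 kept gene of this list past 1.5-fold (1.89% of all genes were that far below). Dll1 was kept only through NOD.g7, the library where it was higher, so its place in both counts rests on the filter.

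Ligand levels were low throughout, with Jag1 at 0.945 in NOD.L7 and 0.717 in NOD.g7, Jag2 at 0.716 in NOD.L7 and 0.695 in NOD.g7, Dll4 at 0.136 in NOD.L7 and 0.116 in NOD.g7, and Dll3 listed at 0 in both. Listed stromal genes other than those of endothelium were below an RPKM of 1 as well. Acta2 was at 0.789 in NOD.L7 and 0.839 in NOD.g7, and Pdgfrb at 0.496 in NOD.L7 and 0.425 in NOD.g7. Col1a1, a collagen gene of fibroblasts, was at 0.0607 in NOD.L7 and 0.0755 in NOD.g7. Ccl19, a chemokine of T zone stroma, was listed at 0 in NOD.L7 and at 0.00723 in NOD.g7. Its row spans 42248504 to 42770050 on chromosome 4. How reads matching several places were counted is not given, so its 0 may not mean absence. Of 13 stroma and endothelium genes 4 reached an RPKM of 1, and the list summed to 78.2 in NOD.L7 and 80.1 in NOD.g7, nearly all of it Pecam1, which leukocytes and platelets also express. The endothelial genes Eng, Vwf and Cdh5 had folds of 0.725, 1.23 and 1.14 at levels no higher than 2.67. The series' design text speaks of spleen cells, and the share of stroma in the material was not tested.

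The 13 genes of receptor processing and glycosylation were all kept, with a median log2 ratio of -0.03, 6 higher and 7 lower in NOD.L7. Of the fringe enzymes, which add sugars to Notch that alter its response to ligands, Lfng was at 78.5 in NOD.L7 and 82.8 in NOD.g7, Mfng at 39.8 in NOD.L7 and 41.9 in NOD.g7, and Rfng at 9.75 in NOD.L7 and 10.57 in NOD.g7. Adam10 was at 40.9 in NOD.L7 and 43.8 in NOD.g7. The gamma-secretase genes Psen2 (fold 1.17) and Aph1b (fold 1.54, at 1.77 in NOD.L7 and 1.15 in NOD.g7) and the protease gene Furin (1.14) were the furthest from 1, and Aph1b was the 1 member past 1.5-fold, against 3.41% of all genes.

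The nuclear complex had a narrow range. All 8 genes were between folds of 0.919 (Maml2) and 1.14 (Spen, a corepressor of Rbpj), with a median of -0.01. Rbpj was at 2.44 in NOD.L7 and 2.39 in NOD.g7, and the co-activator gene Maml1 was at 16.8 in NOD.L7 and 15.8 in NOD.g7. Among 10 kept genes of Notch inhibition and trafficking 7 were higher and 3 lower, where 56.2% of all genes were higher. Their median was 0.08 and none was past 1.5-fold, against 5.3% of all genes. Neurl3, a ubiquitin ligase gene of the Neuralized family, was the furthest, at 46.7 in NOD.L7 and 60.9 in NOD.g7, a fold of 0.766 (0.742 to 0.792). Dtx3 (1.20) and Mib1 (1.19) lay on the other side, Mib1 being the ligase that activates Notch ligands.

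Of 7 Notch target genes 4 were kept, and none passed 1.5-fold, against 5.3% of all genes. Beside Hes1 and Dtx1 these were Nrarp, a feedback inhibitor, at 1.62 in NOD.L7 and 1.32 in NOD.g7 (fold 1.22, interval 0.995 to 1.499), and Hes5 at 3.48 in NOD.L7 and 3.66 in NOD.g7 (0.791 to 1.14). Hey1, Hey2 and Heyl stayed below the filter of RPKM 1. The median log2 ratio of the 4 was 0.10.

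The 9 other marginal zone B cell genes had a median log2 ratio of 0.04, beside 0.02 over all genes. Of the 9, 6 were higher and 3 lower in NOD.L7, where 56.2% of all genes were higher. None was past 1.5-fold, against 5.3% of all genes. Cr2, the complement receptor CD21 that marginal zone B cells carry at high density and follicular cells at lower density, was at 152 in NOD.L7 and 148 in NOD.g7, a fold of 1.03 (1.01 to 1.04). Fcrl5, an Fc receptor-like gene of marginal zone and B1 cells, was at 37.8 in NOD.L7 and 26.4 in NOD.g7, a fold of 1.43 (1.37 to 1.49). The tetraspanin gene Cd9, which B1 cells, plasma cells and platelets also express, was at 49.0 in NOD.L7 and 36.1 in NOD.g7, a fold of 1.36 (1.29 to 1.43). Marcks, an actin-linked membrane protein gene, was 1.21-fold higher. The 3 lower genes were S1pr1 (fold 0.837), Cd36 (0.951) and Myof (0.967).

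Most genes of the pan-B and follicular B cell lists were lower. Of 18 pan-B genes 15 were lower in NOD.L7, against 43.8% of all genes, with a median log2 ratio of -0.20 and none past 1.5-fold. Their summed level was 2875 in NOD.L7 and 3355 in NOD.g7, and none was at 0. Cd79b, a signalling chain of the B cell receptor, was at 511 in NOD.L7 and 651 in NOD.g7, and Ralgps2 had a fold of 0.767. All 6 follicular B cell genes were lower, with a median of -0.27. Fcer2a, the IgE receptor CD23 that follicular cells carry and marginal zone cells largely lack, was at 132 in NOD.L7 and 257 in NOD.g7. It was the 1 gene of the list past 1.5-fold, where 1.89% of all genes were that far below. Klf2, a factor whose loss in mouse B cells expands the marginal zone pool, was at 118 in NOD.L7 and 156 in NOD.g7, and is also a T cell gene.

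The values of the 9 genes can also be given relative to the pan-B median, which raises the log2 ratio of every gene in the table by the same amount. On that scale 8 of the 9 log2 ratios were above 0, against 92.8% of all genes, with S1pr3 at 0.40, Hes1 at 0.31, Dtx1 at 0.28, Asb2 at 0.20, Notch2 at 0.18, Cd1d1 at 0.15, Plac8 at 0.08 and Zbtb20 at 0.04, and Bhlhe41 at -0.05. By plain folds 7 of the 9 were above, against 90.8% of all genes, since Zbtb20 then lay below at 0.994 times the pan-B median. These shares are near those of the table, so the counts do not set the 9 genes apart. The 9 genes and the pan-B genes also overlapped: 6 of the 9 log2 ratios lay inside the range of the 18 pan-B genes, and 7 of the 18 were below the lowest of the 9. That lowest value (-0.24) was about the 5th percentile of all genes (-0.24). The pan-B range (-0.37 to 0.05) began near the 2.5th percentile of all genes (-0.37) and ended below the 75th (0.10). The share of all genes inside it was not computed. None of the 9 passed 1.5-fold on that scale either, against 7.79% of all genes. Within each library Dtx1 stood at 0.218 times the level of Cd79b in NOD.L7 and 0.161 times in NOD.g7, and at 0.847 times that of Fcer2a in NOD.L7 and 0.408 times in NOD.g7. Cr2 was at 1.16 times the level of Fcer2a in NOD.L7 and 0.577 times in NOD.g7, with Cr2 itself near equal. Such ratios depend on the gene set below the line. Fcer2a had the lowest fold of the 6 follicular genes (0.512), the others lying between 0.756 (Klf2) and 0.948 (Foxo1). Cd79b (0.784) was near the low end of the pan-B folds, which ran between 0.767 and 1.04. Not all pan-B genes were lower: Blnk, Cd72 and Vpreb3 had folds of 1.03, 1.04 and 1.01. Whether B cell subsets differed in number was not tested.

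**Figure D3:**
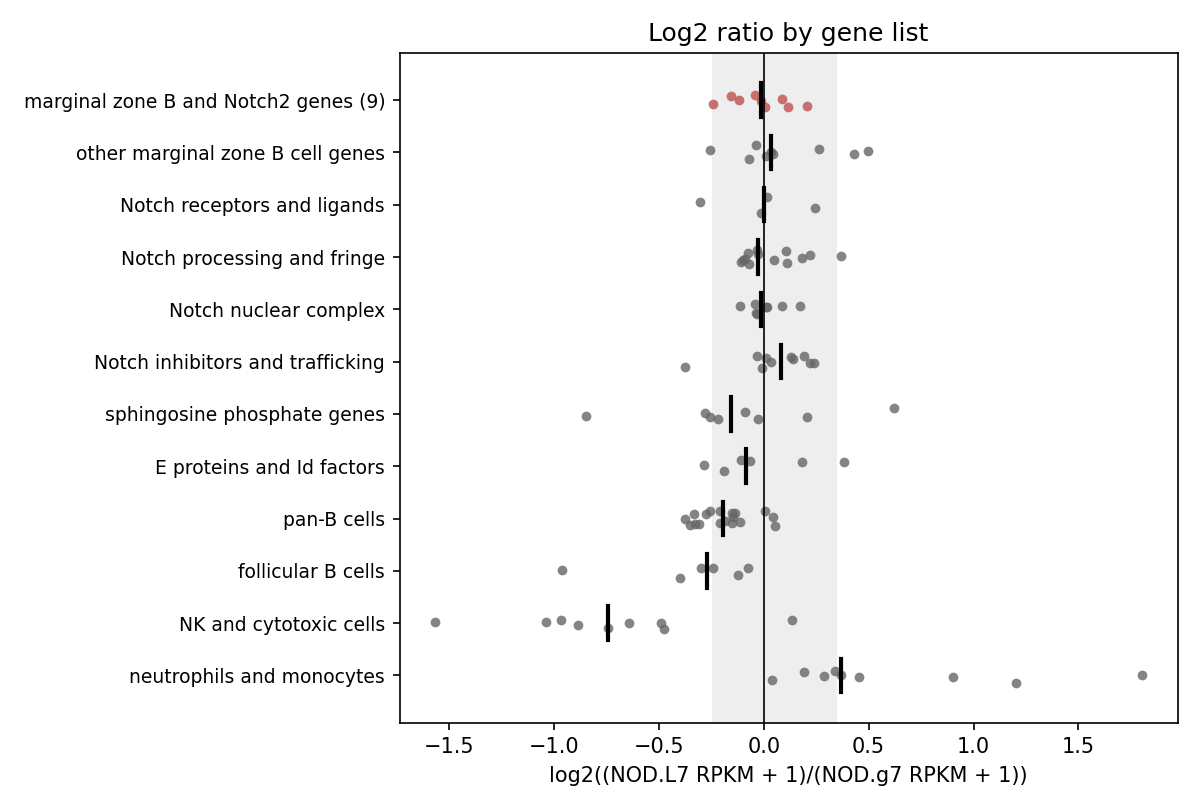
Log2 ratio of NOD.L7 over NOD.g7 (RPKM + 1) for each kept gene of 12 lists, 1 point a gene, with a black line at each list's median and grey between the 5th and 95th percentiles of all 11141 genes (-0.24 and 0.35). The 9 marginal zone and Notch2 genes lie between -0.24 and 0.20 around a median of -0.01, while the pan-B median is -0.20, the follicular one -0.27, the NK one -0.74 and the neutrophil and monocyte one 0.37.

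The E proteins and their Id inhibitors, whose balance takes part in the choice between follicular and marginal zone fates, differed modestly. Id3, the main Id inhibitor of mature B cells, was at 38.7 in NOD.L7 and 47.4 in NOD.g7, a fold of 0.816 (0.775 to 0.860). Tcf3, which encodes the E protein E2A, was at 38.1 in NOD.L7 and 43.6 in NOD.g7, a fold of 0.875. Id1 was at 2.002 in NOD.L7 and 1.3 in NOD.g7, with an interval of 1.11 to 2.18. It alone passed 1.5-fold, where 3.41% of all genes were that far above. The list's median was -0.09, with 2 of 6 higher, against 56.2% of all genes.

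The other sphingosine 1-phosphate receptors lay on both sides of S1pr3. S1pr1, the main receptor for lymphocyte exit into blood, was the highest in level, at 157 in NOD.L7 and 187 in NOD.g7, a fold of 0.837 (0.823 to 0.851). It stood at 8.61 times S1pr3 in NOD.L7 and 11.96 times in NOD.g7. S1pr4 was at 47.3 in NOD.L7 and 57.5 in NOD.g7, a fold of 0.821. S1pr2, known for holding B cells in germinal centres, was at 6.18 in NOD.L7 and 3.67 in NOD.g7, a fold of 1.68 (1.25 to 2.31). S1pr5, the receptor that natural killer cells use to leave lymphoid tissue, was at 4.11 in NOD.L7 and 8.18 in NOD.g7, a fold of 0.503 (0.453 to 0.557).

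The natural killer and cytotoxic list was lower in the same library, with 8 of 9 genes lower, against 43.8% of all genes, and 6 at least 1.5-fold lower, against 1.89%. Its summed level was 124 in NOD.L7 and 244 in NOD.g7 and no gene was at 0. Gzma, Ncr1 and Klrb1c had folds of 0.329, 0.467 and 0.429. The part of these cells in the S1pr5 value, or in that of Plac8, which natural killer cells also express, was not tested. Of the 8 kept sphingosine 1-phosphate genes 2 were higher and 6 lower (43.8% of all genes were lower), with a median of -0.15. The transporter gene Spns2 had a fold of 0.839 and the lyase gene Sgpl1 a fold of 0.938.

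Other cells also express Notch2, Hes1 or Plac8. The dendritic cell, marginal zone macrophage, and neutrophil and monocyte lists had median log2 ratios between 0.26 and 0.37, beside 0.02 over all genes. Single markers such as Lyz2 (0.04) and Siglec1 (0.06) had log2 ratios as near 0 as those of the 9. All 6 dendritic cell genes stood higher in NOD.L7, against 56.2% of all genes (median log2 ratio 0.37), at a summed level of 105 in NOD.L7 and 78.3 in NOD.g7. Esam, which marks the splenic dendritic cells that need Notch2 in mice, was at 1.76 in NOD.L7 and 1.14 in NOD.g7 (fold 1.54, interval 1.20 to 1.99), Itgax had a fold of 1.46 and Zbtb46 a fold of 1.48. Marginal zone macrophage genes were low: Marco, a scavenger receptor gene of these cells, was at 4.0 in NOD.L7 and 3.18 in NOD.g7, Nr1h3 at 5.13 in NOD.L7 and 3.62 in NOD.g7, and Siglec1 at 1.85 in NOD.L7 and 1.74 in NOD.g7. The 9 neutrophil and monocyte genes were also all higher, against the same 56.2% of all genes (median 0.37). Their summed level was 1738 in NOD.L7 and 1428 in NOD.g7, and Cd14, Cxcr2 and Csf3r had folds of 3.82, 2.39 and 1.89. The part of these cells in the Notch2, Hes1 and Plac8 values was not tested.

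The B1, plasma cell and T cell lists had medians between 0.02 and 0.14. The 4 B1 genes, which include Bhlhe41, had a median of 0.14, with Cd5, also a T cell gene, at a fold of 1.13. Plasma cell genes had a median of 0.10, and the joining chain gene Igj had a fold of 1.44, Xbp1 1.12 and Sdc1 0.839, beside 0.868 for Zbtb20. Pan-T genes had a median of 0.02, with Trat1 at a fold of 1.36, Lat at 1.30 and Cd2 at 0.884. Erythroid genes were all 6 lower, against 43.8% of all genes, and all at least 1.5-fold lower, against 1.89%. Their summed level was 40.6 in NOD.L7 and 101 in NOD.g7, with folds of 0.179 for Slc4a1 and 0.233 for Rhd. The genes around Cd1d1 in lipid presentation were steady, with Psap at a fold of 1.07 and B2m at 1.01.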

How the data were processed

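The authors deposited 1 table of RPKM values per gene and library, with a symbol and coordinates. The submitters' processing notes name CASAVA 1.8.2, SAMtools 0.1.18 and build mm9. The sources used here do not give aligner settings, gene models, strandedness or how multiply matching reads were counted. Column NOD.LC7 was read as NOD.L7, from the series title's name for these mice, and column NOD as NOD.g7 by exclusion; no source used here states the second match, and the direction of every fold rests on it.

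The 9 genes, the 20 other lists and the rules were chosen with earlier results of these data known. Genes were kept where either library reached an RPKM of 1. Log2 ratios used a pseudocount of 1, so they understate differences at low levels, and folds are plain RPKM ratios. Named by rule were the 9 genes, Cd1d2, Bhlhe40, the 3 kept genes of each list furthest from a log2 ratio of 0 and the nearest kept gene on either side of each of the 9; the others were named after their values were seen, and some genes that the rule names are not reported here. 1 listed gene was matched by an older symbol through RefSeq synonyms.

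Depth came from the steps of low values of single-exon genes under 2500 bases that matched a GENCODE M21 transcript in span. Candidate depths were searched for the highest share of values where RPKM times length times depth was a whole number of bases within 0.15. At the depth so chosen the share was 100% of 42 values in NOD.L7 and 43 in NOD.g7. That share was the aim of the search and is no separate check. Fragments were approximated from RPKM, the transcript nearest in span and 200 bases a fragment, a length that was assumed, so intervals are approximate. The transcript so chosen was short for Bhlhe41 (744 bases) and S1pr2 (379 bases), and a longer one would narrow their intervals. The depth and interval code was tested on simulated data. Python 3.11.15, pandas 2.3.3, scipy 1.17.1 and matplotlib 3.10.9 were used. No count model was applied.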

Additional observations from a re-analysis of the deposited data

How the results depend on the processing

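No paired analysis was possible because there is only 1 library of each genotype, and so no replicate could be left out. Median centring, a trimmed mean factor (TMM, unweighted), pseudocounts of 0.5 and 0.1, and the filter moved to RPKM 5 or dropped left 0 of the genes past a log2 ratio of 1, and 0 past 1.5-fold where that was recomputed, and 52 single-gene values within their counting intervals. The filter does not enter a gene's ratio, so the 9 of these values with the filter dropped and the 7 at RPKM 5 could not have moved. At the filter of 5, Zbtb20 and Bhlhe41 dropped out. Measured against the pan-B median, the median log2 ratio of the 9 genes was 0.18 instead of -0.01, a shift fixed by the pan-B median of -0.20, and 8 of 9 single values moved by more than their counting error. No setting can show how values vary between mice. Counting error was widest for Bhlhe41, with an interval of 0.656 to 1.01 at a transcript length taken as 744 bases.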

Other observations

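The 9 genes lie on chromosomes 3 (Notch2 and Cd1d1), 5 (Dtx1 and Plac8), 16 (Hes1 and Zbtb20), 6 (Bhlhe41), 12 (Asb2) and 13 (S1pr3). Notch2 spans 97817461 to 97954290 on chromosome 3 in mm9, and Bhlhe41 spans 145811257 to 145813860 on chromosome 6. The nearest kept genes on either side, 18 in all, had a median log2 ratio of -0.00113, and 1 was past 1.5-fold, about the share of all genes (5.3%). That gene was Cd5l, a macrophage-secreted scavenger protein gene 359 kb from Cd1d1, at 10.025 in NOD.L7 and 6.50 in NOD.g7, a fold of 1.54 (1.40 to 1.70). Otub2, a deubiquitinase gene 20.9 kb from Asb2, had a fold of 1.46 (1.26 to 1.70), while Asb2 itself was at 1.003. On the other side, 4632428C04Rik next to Hes1 had a fold of 0.769 and Dclk2 next to Cd1d1 a fold of 0.813. The neighbours of Dtx1 were Rasal1, 0.671 kb away, at 7.55 in NOD.L7 and 7.002 in NOD.g7, and the antiviral gene Oas2, at 3.14 in NOD.L7 and 3.47 in NOD.g7. On the distal side of Bhlhe41 the neighbour was Itpr2, with a fold of 1.04. The other neighbours reported (Sec22b, Phgdh, Atp13a3, Btbd7, Spin1, Cks2, Cops4, Coq2, BC002163 and Mir568) lay between folds of 0.877 and 1.11.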
